A study of Mus musculus with 6 samples.

Results

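Glycolysis and hypoxia response genes were examined in RNA from haploid mouse embryonic stem cells (ES cells) with and without p53, the transcription factor that arrests or kills stressed cells. The set holds 39 genes chosen by name: the transporters and enzymes that take glucose to lactate, the oxygen-sensing factors HIF-1α and HIF-2α with their prolyl hydroxylases, and well-known targets of these factors. Gapdh was left out because of its many near-identical copies. All 39 names were found among the 54532 genes of the table. Aldoa names 2 adjacent genes there, so the set has 40 entries, and 39 of them passed the filter on low values (mean of at least 0.5 FPKM over the 6 libraries). FPKM are fragments per kilobase of gene length and scaled to a common library total, so levels of different genes can be set side by side.

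The study has 6 libraries of poly(A)-selected RNA, all from haploid ES cells of strain 129SV. In the first group are 3 libraries of wild-type (WT) haploid cells. The other group has 3 libraries of haploid cells given as p53-negative, which the sample titles call P53ki and the series design a knockout. No treatment, time point, oxygen level or culture medium is given for either group, nor whether the libraries of a group came from separate cultures, lines or clones. The p-values therefore rest on the spread among these libraries only, and that spread may be technical. Whether a difference comes with the genotype or with a line or culture cannot be told apart.

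As background, glycolysis turns glucose into pyruvate in the cytosol, and lactate dehydrogenase can then reduce pyruvate to lactate. Mouse ES cells in the naive state are known to use both glycolysis and respiration. When oxygen is low, HIF-1α and HIF-2α escape hydroxylation by the EGLN enzymes, pair with ARNT and induce glucose transporters, glycolytic enzymes and genes such as Vegfa, Bnip3 and Adm. Much of this control acts on the stability of the HIF proteins, which RNA does not show.

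Trp53, the gene of p53 (chromosome 11, 69580359 to 69591873, plus strand; all coordinates are mm10), stood at 64.5, 69.8 and 69.6 FPKM in the WT libraries and at 9.71, 9.71 and 9.98 FPKM in the p53-deficient ones. The groups did not overlap, and the log2 fold change on the log2(FPKM + 1) scale was -2.67 (limma adjusted p = 3.57e-08). That scale, used for every fold change here, understates the change of low genes. Library depth ranged from 11536412 to 21218976 rebuilt reads in genes, with the lowest in p53-deficient replicate 2. All 10 ES cell markers were expressed in both groups, Tfcp2l1 lowest at group means of 39.0 and 49.7 FPKM (WT first), but 9 of them changed: 5 were called lower and 4 higher, with the call of Pou5f1 (Oct4; 0.13) lost with median-ratio scaling (0.035). Among the markers Dppa5a went from 2007 to 1075 FPKM (-0.90), Nanog from 329.8 to 221 FPKM (-0.57) and Esrrb from 54.4 to 101 FPKM (0.88). The sum of the 10 went from 3503 to 2516 FPKM, 0.718 of that in WT, and most of this fall lay in Dppa5a. The median log2 fold change of the 10 was -0.078. Markers of fibroblasts, which often serve as feeder cells, were present in both groups as well and lower in the p53-deficient libraries. The 27 of 30 that passed the filter were all called lower (limma adjusted p under 0.05), against 31.3% of all genes. Their median log2 fold change was -2.24, and the smallest fall was -0.89. The summed level of the 30 markers ran from 1529 to 1548 FPKM in WT and from 276 to 296 FPKM in p53-deficient libraries, with no marker at 0 throughout. Col1a1 and Lgals1, the markers of highest WT mean, were at 210.0 and 389 FPKM in WT against 30.9 and 111 FPKM. On the log2(FPKM + 1) scale, Lox and Col5a2 had the largest falls (-3.37 and -2.78). Reads of 4 Y-linked genes numbered 1161 in WT and 103 in p53-deficient libraries, 9.84 times lower after adjusting for depth (95% interval 8.04 to 12.2, exact binomial, counting error only). In bulk RNA, fewer cells of a type and less RNA per cell cannot be told apart, and the part of fibroblast RNA in the falls described here was not tested.

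Most members of the set differed between the groups, and the falls were larger than the rises. In the limma fit on log2(FPKM + 1), 33 of 39 tested entries were called at an adjusted p under 0.05 (84.6%), where 66.5% of all 15144 tested genes were called. Lower in p53-deficient cells were 24 entries (61.5%, against 31.3% of all genes) and higher were 9 (23.1%, against 35.3%). Falls of at least 2-fold on this scale numbered 12 (30.8%), against 6.3% of all genes, and no member rose by 2-fold, which 3.42% of all genes did. The WT libraries all lay above the p53-deficient ones for 25 entries (33.7% of all genes) and all below for 11 (37.7%). The median log2 fold change was -0.34 over the members and 0.03 over all tested genes.

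By role, the changes were larger among the hypoxia genes. The 15 hypoxia members had a median of -1.46 over the 14 tested. Of these 10 were lower (71.4%, against 31.3% of all genes), 1 was higher (7.14%, against 35.3%) and 9 fell at least 2-fold (64.3%, against 6.3%). The 25 glycolysis entries had a median of -0.15, with 14 lower (56.0%), 8 higher (32.0%) and 3 falls of at least 2-fold (12.0%). Their share higher was near the 35.3% of all genes. Abundance went along with this: the 8 members above 100 FPKM in WT, all of glycolysis, changed by between -0.78 and 0.10, while 7 of the 18 members between 10 and 100 FPKM and 5 of the 13 below 10 FPKM fell at least 2-fold. Whether the hypoxia members differ from the glycolysis members beyond these counts was not tested.

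**Figure D1:**
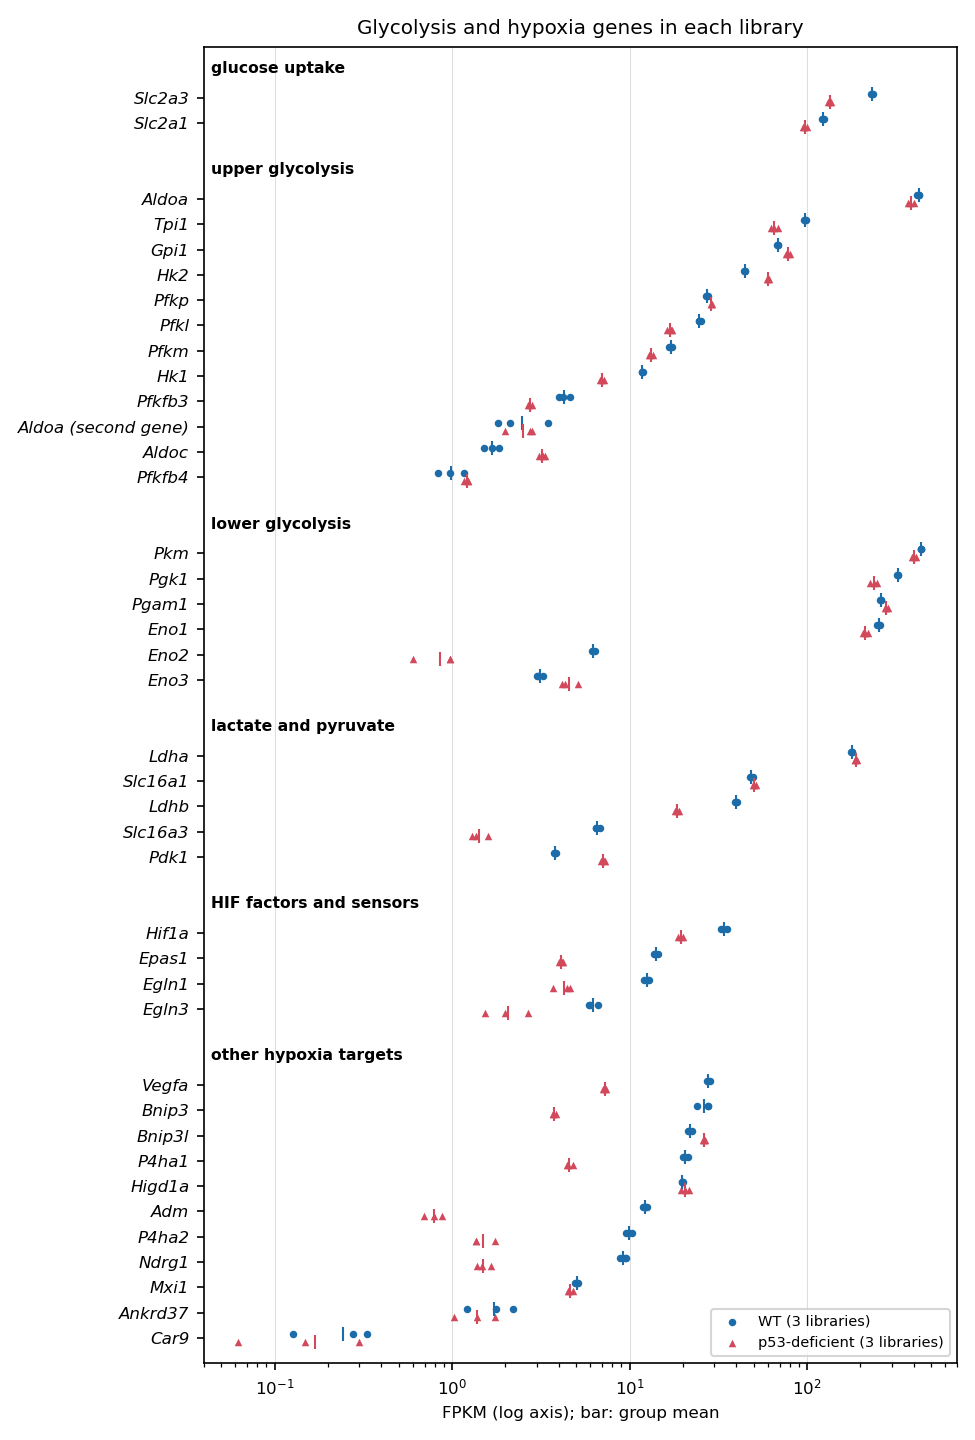
FPKM (log axis) of the 40 entries in each library, WT as circles and p53-deficient as triangles, with a bar at each group mean, ordered by role and by WT mean. The most abundant glycolytic genes lie close together in the groups, whereas Adm, Bnip3, P4ha1, P4ha2, Ndrg1, Vegfa, Eno2 and Slc16a3 are separated by wide gaps.

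The promoters of the members that changed most are shown because HIF binds a short core in DNA, ACGTG or GCGTG. The 250 bases before the RefSeq start (GRCm38.p6, the sequence of mm10), 5′ to 3′ on the gene's strand, are given for the largest fall and rise and, added after the values were seen, the next 2 falls and the next rise. Capitals mark ACGTG or GCGTG on either strand.
Adm (chr7:110627407-110627656, plus strand): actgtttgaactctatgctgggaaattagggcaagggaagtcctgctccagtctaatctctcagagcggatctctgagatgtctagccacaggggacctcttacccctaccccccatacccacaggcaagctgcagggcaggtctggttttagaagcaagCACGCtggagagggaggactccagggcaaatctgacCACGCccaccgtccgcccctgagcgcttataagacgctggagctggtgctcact
Bnip3 (chr7:138909507-138909756, minus strand): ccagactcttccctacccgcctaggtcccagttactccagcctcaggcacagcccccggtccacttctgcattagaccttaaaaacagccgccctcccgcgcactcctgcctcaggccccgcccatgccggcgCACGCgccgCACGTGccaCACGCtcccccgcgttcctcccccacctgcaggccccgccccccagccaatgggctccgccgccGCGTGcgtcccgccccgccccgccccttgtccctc
P4ha2 (chr11:54100674-54100923, plus strand): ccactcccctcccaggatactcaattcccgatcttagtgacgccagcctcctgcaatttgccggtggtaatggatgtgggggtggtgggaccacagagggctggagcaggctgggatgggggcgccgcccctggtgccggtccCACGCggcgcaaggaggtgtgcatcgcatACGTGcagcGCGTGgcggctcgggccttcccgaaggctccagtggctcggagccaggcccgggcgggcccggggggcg
Pdk1 (chr2:71872974-71873223, plus strand): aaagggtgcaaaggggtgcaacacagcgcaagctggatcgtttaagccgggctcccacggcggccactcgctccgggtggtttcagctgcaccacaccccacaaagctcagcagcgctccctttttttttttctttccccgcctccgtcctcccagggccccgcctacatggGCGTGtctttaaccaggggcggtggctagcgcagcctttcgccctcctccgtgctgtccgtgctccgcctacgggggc
Aldoc (chr11:78322823-78323072, plus strand): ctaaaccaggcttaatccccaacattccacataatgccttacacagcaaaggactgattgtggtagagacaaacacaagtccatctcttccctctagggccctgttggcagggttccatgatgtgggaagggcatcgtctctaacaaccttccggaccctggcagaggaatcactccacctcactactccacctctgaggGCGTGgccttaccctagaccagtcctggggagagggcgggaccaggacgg

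These stretches hold 2, 5, 3, 1 and 1 matches in that order. The palindrome CACGTG in Bnip3 counts once on each strand. The stretches of P4ha2 and Aldoc belong to RefSeq starts 829 and 105 bases from the gene starts of the table. Promoters were found by symbol for 35 of the 39 genes, with 51 windows of 300 bases (250 before and 50 after each start). In the windows of the printed starts, ACGTG and GCGTG numbered 0 and 2 in Adm, 2 and 3 in Bnip3 and 2 and 2 in P4ha2. For the rises they numbered 0 and 2 in Pdk1 and 1 and 2 in Aldoc, so the counts depend on where the stretch ends. The WT mean of Eno2, whose promoter is not printed, was 7.33 times its p53-deficient mean, against 7.06 for Bnip3 and 6.63 for P4ha2. The window of Eno2 held neither core. ACGTG lay in 28 of the 51 windows (54.9%), against 19.6% of all 32851 promoter windows, and GCGTG also in 28 (54.9%, against 32.4%). Windows with CACGTG, which contains ACGTG and is also the E-box of other factors, numbered 6 (11.8%, against 7.15%). Of the 11 windows from 10 of the 12 members that fell at least 2-fold, 7 held ACGTG (63.6%), and of the 40 windows of the other members 21 did (52.5%). The members were listed partly as known HIF targets, so these shares describe the list, and a match is not a binding site.

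Glucose transporters fell. Slc2a3, which encodes the high-affinity transporter GLUT3 (chromosome 6, 122727809 to 122801640), stood at 231, 230.0 and 234 FPKM in WT and at 135, 131 and 136 FPKM in p53-deficient libraries. The lowest WT library was well above the highest p53-deficient one, and the log2 fold change was -0.78 (SE 0.0227, limma adjusted p = 6.54e-07). Slc2a1, which encodes the widespread transporter GLUT1, fell less, from 123, 124 and 122 FPKM to 100.4, 95.4 and 96.4 FPKM (log2 fold change -0.33), again without overlap. Together both genes went from 354 to 356 FPKM in WT down to between 227 and 235 FPKM, a ratio of means of 0.653. Slc2a1 made up 34.7 ± 0.384% of the pair in WT and 42.0 ± 0.604% in p53-deficient libraries (SD, n = 3 per group, as for every mean given here).

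Upper glycolysis, in which glucose is phosphorylated and split, changed in both directions: of 12 entries 6 fell, 4 rose and 2 were not called. Of all tested genes 31.3% were called lower and 35.3% higher. The share of rises among these entries, 33.3%, was near that of all genes. Hk2, the inducible hexokinase that starts the pathway, rose from 44.4, 44.5 and 44.9 FPKM to 59.5, 61.1 and 60.6 FPKM, with a log2 fold change of 0.43 (SE 0.0213, limma adjusted p = 6.28e-06). Hk1, the constitutive hexokinase, moved the other way, from 11.9, 11.7 and 11.8 FPKM to 6.97, 6.78 and 7.13 FPKM (log2 fold change -0.68). Neither gene's groups overlapped. Hk2 therefore made up 79.1 ± 0.211% of the hexokinase FPKM in WT and 89.7 ± 0.300% in p53-deficient cells, and the sum of the pair went from 56.4 ± 0.264 to 67.4 ± 0.799 FPKM.

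Phosphofructokinase, the main control point of the pathway, is made from 3 genes. Pfkl and Pfkm, named for liver and muscle, both fell: Pfkl stood at 24.7 ± 0.362 FPKM in WT against 16.9 ± 0.507 FPKM (-0.52), and Pfkm at 17.0 ± 0.344 against 13.2 ± 0.314 FPKM (-0.34). Pfkp, named for platelets, was 27.4 ± 0.246 against 28.9 ± 0.149 FPKM, a rise of 0.078 that passed the test (limma adjusted p = 0.0167) but turned to -0.017 with median-ratio scaling (each library shifted by its median log2 ratio) and to -0.025 after quantile normalization, with neither called. Its share of the 3 genes went from 39.6 ± 0.0847% to 49.0 ± 0.153%, while their sum went from 69.1 ± 0.504 to 59.0 ± 0.306 FPKM. Pfkfb3 and Pfkfb4 encode enzymes that set fructose 2,6-bisphosphate, an activator of phosphofructokinase. Pfkfb3 stood at 3.99, 4.59 and 4.24 FPKM in WT and fell to 2.72, 2.83 and 2.67 FPKM (-0.50), and Pfkfb4 stood at 0.831, 1.17 and 0.976 FPKM against 1.23, 1.22 and 1.17 FPKM without passing (limma adjusted p = 0.131). Pfkfb4 passed at 0.27 after quantile normalization (limma adjusted p = 0.0233).

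The other enzymes of this stretch also differed in direction. Gpi1, glucose phosphate isomerase, rose from 68.7 ± 0.466 to 78.5 ± 2.08 FPKM (log2 fold change 0.19), which came to 0.092 with median-ratio scaling. Tpi1, triose phosphate isomerase, fell from 97.6, 98.2 and 95.9 FPKM to 69.0, 62.7 and 64.8 FPKM (log2 fold change -0.56), with no overlap. Aldoa, the main aldolase and the second most abundant member, fell slightly, from 425 ± 5.75 to 383 ± 16.3 FPKM (log2 fold change -0.15, limma adjusted p = 0.00781; -0.25 with median-ratio scaling). The second gene of that name lies just upstream on the same strand (chromosome 7, 126800790 to 126809108) and stood at 2.48 ± 0.893 against 2.51 ± 0.458 FPKM with overlapping groups. Aldoc, a paralogue best known from brain, rose from 1.51, 1.83 and 1.68 FPKM to 3.09, 3.24 and 3.34 FPKM (log2 fold change 0.66), yet made up only 0.359% to 0.872% of the FPKM of Aldoa and Aldoc across the 6 libraries.

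Lower glycolysis, which yields ATP and pyruvate, fell in 4 of 6 genes (66.7%, against 31.3% of all genes) and rose in 2 (33.3%, against 35.3%). Pgk1, phosphoglycerate kinase on the X chromosome, fell most among the enzymes above 100 FPKM in WT, from 324, 325 and 322 FPKM to 247, 227 and 238 FPKM (log2 fold change -0.45, SE 0.0327, limma adjusted p = 3.43e-05). Pkm, the pyruvate kinase gene and the most abundant member, went from 439 ± 1.69 to 400.4 ± 9.14 FPKM (-0.13), or -0.23 with median-ratio scaling, and 15.3% of its exon length overlaps another gene on the same strand, AC160637.1. Pgam1, phosphoglycerate mutase, rose from 260.1 ± 0.780 to 279 ± 6.37 FPKM, a log2 fold change of 0.10 that came to 0.0044 without passing with median-ratio scaling.

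The enolase genes diverged. Eno2, the enolase best known from neurons (chromosome 6, 124760053 to 124769673), stood at 6.13, 6.38 and 6.23 FPKM in WT and at 0.606, 0.975 and 0.976 FPKM in p53-deficient libraries, which rests on 498 to 604 and 53 to 81 rebuilt reads per library. Its groups were far apart, with a log2 fold change of -1.98 (SE 0.0897, limma adjusted p = 4.24e-06). The same test on rebuilt reads with voom gave -2.99 for Eno2. Eno3, the muscle enolase, rose from 3.26, 3.06 and 3.02 FPKM to 4.18, 4.33 and 5.12 FPKM (log2 fold change 0.43). Eno1, the widespread enolase, fell from 253 ± 3.96 to 213 ± 7.41 FPKM (-0.25), but its reads cannot be parted with certainty from its near-identical copy Eno1b, which was at 263 ± 1.14 and 241 ± 5.98 FPKM. The sum of Eno1 and Eno1b went from 516 ± 5.08 to 454 ± 13.4 FPKM. Near-identical copies of 8 other members were expressed at lower levels, from Gm1840 (a copy of Gpi1) at a mean of 0.712 FPKM over all libraries to Pgam1-ps2 at 21.7 FPKM. Relative to its member the most abundant of these was Bnip3l-ps, at 7.31 ± 0.0937 and 7.93 ± 0.680 FPKM. Summed over the 16 entries from the hexokinases to pyruvate kinase, the level was 1999, 2017 and 2004 FPKM in WT and 1851, 1746 and 1787 FPKM in p53-deficient libraries, a ratio of means of 0.894.

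At the exit of the pathway the paralogues again parted. Ldha, the lactate dehydrogenase subunit that favours lactate, stood at 179, 177 and 179.5 FPKM in WT and at 192, 186 and 187 FPKM in p53-deficient libraries. Its rise of 0.076 (limma adjusted p = 0.0186) turned to -0.022 with median-ratio scaling and was not called there, nor after quantile normalization, nor without WT replicate 1 or WT replicate 2 (limma adjusted p = 0.0586 and 0.0710). Ldhb, the subunit typical of heart, fell from 40.4, 39.6 and 39.4 FPKM to 18.9, 18.5 and 17.98 FPKM, a log2 fold change of -1.07 (SE 0.0273, limma adjusted p = 4.05e-07). Ldha thus went from 81.8 ± 0.225% to 91.1 ± 0.144% of the lactate dehydrogenase FPKM, a shift of 9.31 percentage points in FPKM and of 5.13 in rebuilt reads.

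Slc16a3, which encodes the lactate exporter MCT4 and is a known HIF target, fell from 6.51, 6.80 and 6.48 FPKM to 1.60, 1.37 and 1.30 FPKM (log2 fold change -1.65). Its paralogue Slc16a1, which encodes MCT1 and carries lactate and pyruvate in either direction, was 48.6 ± 0.687 against 50.5 ± 0.758 FPKM without passing (limma adjusted p = 0.0848; -0.045 with median-ratio scaling). Slc16a1 made up 88.1 ± 0.404% of the pair in WT and 97.3 ± 0.328% in p53-deficient cells. Pdk1, another HIF target, is the kinase that shuts pyruvate out of the mitochondrial pyruvate dehydrogenase reaction. It had the largest rise of the set on the log2(FPKM + 1) scale. The ratio of means (p53-deficient over WT) was 1.87 for Pdk1 and larger, at 1.92, for Aldoc. The printed promoter of Pdk1 holds 1 GCGTG, and the longer window of the same start holds 2. Pdk1 stood at 3.78, 3.84 and 3.78 FPKM in WT and at 7.15, 6.94 and 7.26 FPKM in p53-deficient libraries. The p53-deficient libraries lay far above WT, with a log2 fold change of 0.76 (SE 0.0358, limma adjusted p = 5.14e-06).

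**Figure D2:**
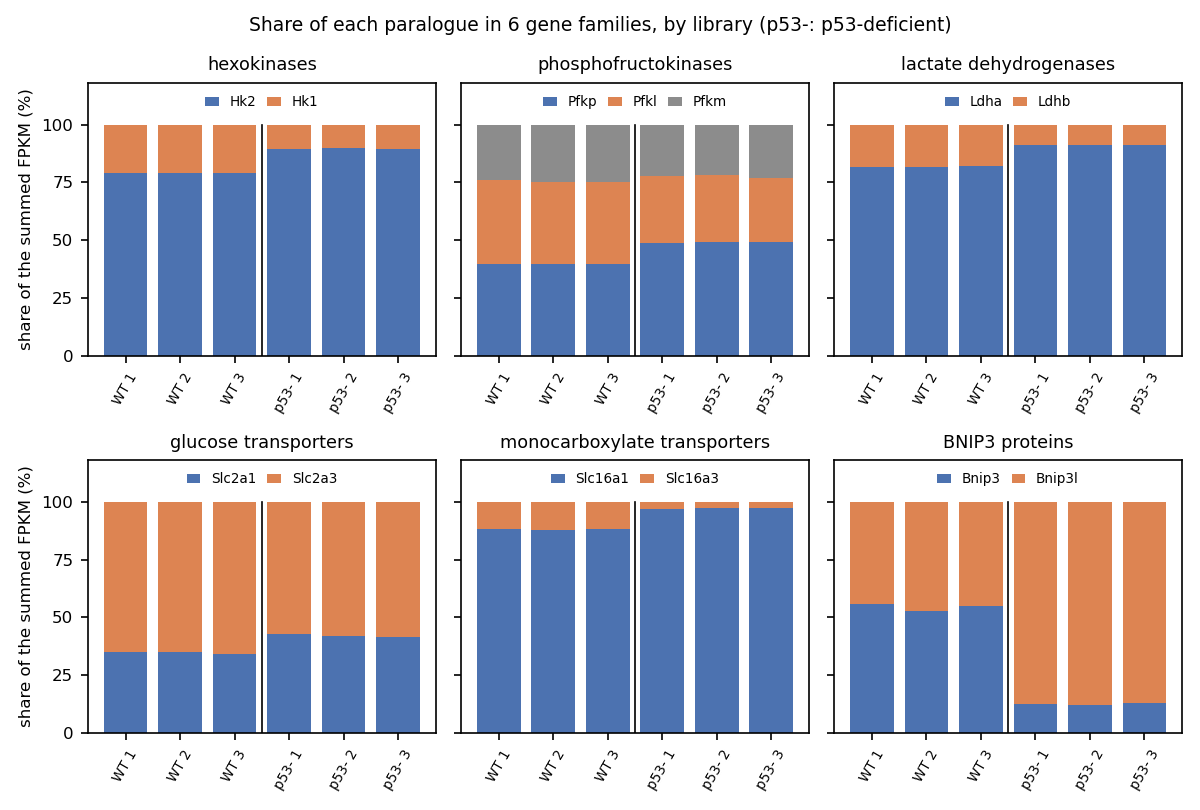
Stacked bars give the share (%) of each paralogue in the summed FPKM of its family, 1 bar per library, for 6 families. In each family the split of the p53-deficient libraries differs from that of WT by more than the spread within a group, most for Bnip3, which goes from 54.6% to 12.5% of its pair.

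The 4 HIF subunits and prolyl hydroxylases in the set, Hif1a, Epas1, Egln1 and Egln3, were all called lower, against 31.3% of all genes. Hif1a, which encodes HIF-1α (chromosome 12, 73901375 to 73947530), stood at 32.9, 33.4 and 35.5 FPKM in WT and at 18.6, 19.5 and 20.1 FPKM in p53-deficient libraries. Every WT library was above every p53-deficient one, with a log2 fold change of -0.77 (SE 0.0402, limma adjusted p = 7.64e-06). Epas1, which encodes HIF-2α (chromosome 17, 86753907 to 86833410), fell further, from 13.8, 13.8 and 14.4 FPKM to 4.22, 4.01 and 4.15 FPKM (-1.55). Hif1a therefore took 70.8 ± 0.359% of the FPKM of both alpha subunits in WT and 82.5 ± 0.786% in p53-deficient cells.

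Egln1 and Egln3 encode PHD2 and PHD3, which mark HIF-α for destruction, and both are themselves induced by HIF. Egln1 stood at 12.7, 12.9 and 12.1 FPKM in WT and fell to 3.72, 4.60 and 4.43 FPKM (-1.38). The groups were well separated. Egln3 fell from 6.66, 5.93 and 6.02 FPKM to 2.00, 1.53 and 2.68 FPKM (log2 fold change -1.25). Egln3 varied most among the called members, with a coefficient of variation of 28.1% in p53-deficient libraries, where it rests on 47 to 126 rebuilt reads. Egln1 made up 67.0 ± 1.49% of the pair in WT and 67.5 ± 6.73% in p53-deficient libraries, where it ranged from 62.3% to 75.1%.

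Other oxygen-sensing genes, outside the set and named after their values were seen, did not all go the same way. Egln2, the third prolyl hydroxylase, rose from 21.1 to 25.5 FPKM (0.26, or 0.17 with median-ratio scaling), and Hif1an, which encodes the asparaginyl hydroxylase FIH, rose from 8.40 to 10.9 FPKM (0.35). Hif3a, a further alpha subunit, rose from 0.578 to 1.31 FPKM (0.55, or 1.13 with voom on rebuilt reads). Arnt, the common partner, was called higher at 11.3 against 12.6 FPKM (0.14), a call lost with median-ratio scaling (0.047, limma adjusted p = 0.254). Its paralogue Arnt2 fell from 1.48 to 0.489 FPKM (-0.74, or -1.61 with voom). Vhl, which directs hydroxylated HIF-α to destruction, was called lower at 10.2 against 9.21 FPKM (-0.13). That call was lost without WT replicate 2 or 3 or p53-deficient replicate 2 or 3 (limma adjusted p from 0.0547 to 0.0735).

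Of the 10 other hypoxia targets tested, 6 fell at least 2-fold, 1 rose and 3 were not called. Of all tested genes 6.3% fell at least 2-fold and 35.3% were called higher. The share of these targets called in either direction was near the 66.5% of all genes. Adm, which encodes the vasodilator peptide adrenomedullin (chromosome 7, 110627661 to 110629820), had the largest fall of the set, from 12.3, 12.6 and 11.8 FPKM to 0.793, 0.695 and 0.875 FPKM. The WT mean was 15.6 times the p53-deficient mean, with 345 to 401 rebuilt reads per library against 13 to 27, and the log2 fold change was -2.89 (SE 0.0529, limma adjusted p = 1.08e-07). Vegfa, the growth factor of blood vessels, fell from 27.9, 28.3 and 27.3 FPKM to 7.41, 7.29 and 7.10 FPKM (-1.80). Both encode secreted signals, and in neither did the groups overlap.

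Bnip3 and Bnip3l encode related mitochondrial proteins that mark mitochondria for removal. Bnip3 (chromosome 7, 138890836 to 138909519) stood at 27.6, 23.9 and 27.7 FPKM in WT and at 3.69, 3.71 and 3.83 FPKM in p53-deficient libraries. Its promoter, shown above, holds the most core matches of those printed, with the palindrome counted on each strand. That rank does not extend to all members. ACGTG and GCGTG numbered 2 and 3 in the Bnip3 window, but 5 and 2 in a window of Ldha (0.076). In the window of Slc16a1 (0.052, not called) they numbered 3 and 2. Whether match counts go with the size of a change was not tested. For Bnip3, WT replicate 2 was the lowest of its group and still far above the p53-deficient libraries. The log2 fold change of Bnip3 was -2.53 (SE 0.0595, limma adjusted p = 2.92e-07). Bnip3l, also called Nix, rose from 21.7, 21.4 and 22.6 FPKM to 26.1, 26.6 and 26.0 FPKM (0.25, or 0.16 under either scaling alternative). Bnip3 thus held 54.6 ± 1.59% of the pair in WT and 12.5 ± 0.331% in p53-deficient cells, the largest shift among the 12 paralogue families examined.

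P4ha1 and P4ha2 encode the catalytic subunits of collagen prolyl 4-hydroxylase, an enzyme of collagen-making cells as well as a HIF target. P4ha1 stood at 20.4, 20.1 and 21.3 FPKM in WT and fell to 4.52, 4.77 and 4.46 FPKM (-1.95). P4ha2 went from 9.87, 9.51 and 10.4 FPKM down to 1.36, 1.75 and 1.37 FPKM (-2.13). Beside these values, the median log2 fold change of the fibroblast markers was -2.24, and the part of fibroblast RNA in these falls was not tested. Ndrg1, a stress-induced gene linked to differentiation, fell from 8.78, 9.45 and 9.50 FPKM to 1.47, 1.65 and 1.38 FPKM (-2.03). The groups did not overlap in any of these 3 genes.

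The other 4 targets showed no called change. Higd1a, a mitochondrial protein gene, stood at 19.9, 19.9 and 19.7 FPKM against 19.6, 21.7 and 20.6 FPKM (difference 0.05, 95% interval -0.043 to 0.15). Mxi1, a MYC antagonist, was 4.95, 5.10 and 5.03 FPKM against 4.56, 4.48 and 4.82 FPKM with no overlap, but the difference of -0.10 did not pass (limma adjusted p = 0.0657). It passed at -0.18 with median-ratio scaling. Ankrd37 stood at 1.77, 1.22 and 2.21 FPKM against 1.39, 1.74 and 1.03 FPKM, with overlapping groups (interval of the difference -0.59 to 0.21). Car9, carbonic anhydrase IX, often used as a hypoxia marker, rested on few counts in both groups, with 6 to 15 rebuilt reads per WT library and 3 to 8 per p53-deficient library, and was not tested.

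**Figure D3:**
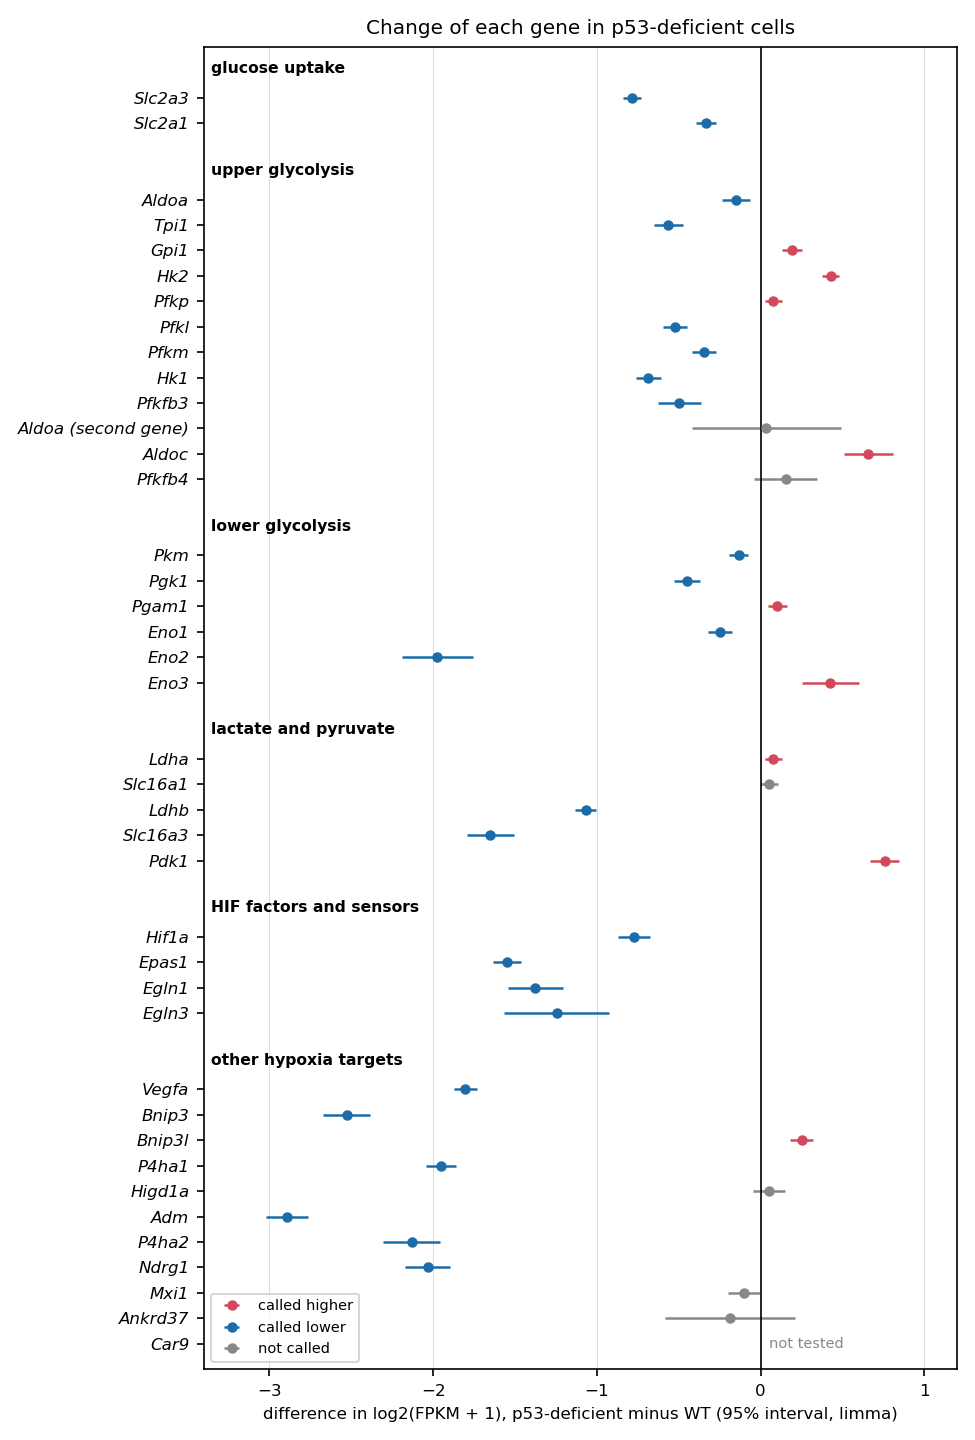
Difference in log2(FPKM + 1), p53-deficient minus WT, for each tested entry with its 95% interval from limma (unadjusted), coloured by call. Hypoxia genes reach -2.89 (Adm), whereas the enzymes from hexokinase to pyruvate kinase, Eno2 apart, lie between -0.68 and 0.66.

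Other genes of both pathways were counted in lists drawn from general knowledge. The lists were chosen with earlier results of these data known, so their counts are not an independent check of the members. Among 38 further glycolysis genes 24 were tested, of which 8 fell (33.3%, against 31.3% of all genes), 8 rose (33.3%, against 35.3%) and 8 were not called, with a median log2 fold change of 0.048. Fbp2, an enzyme of glucose synthesis, fell from 9.63 to 1.51 FPKM (-2.09), Pgm2, a phosphoglucomutase, from 10.3 to 3.00 FPKM (-1.50), and Pdk4, a paralogue of Pdk1, from 1.96 to 0.670 FPKM (-0.83, or -1.56 with voom on rebuilt reads). Pdp2, Mpc1 and Pdk3 rose with 0.41, 0.39 and 0.38. Pdp2 reverses the action of the PDK kinases and Mpc1 carries pyruvate into mitochondria. Pdhb, a subunit of pyruvate dehydrogenase, was at 65.4 and 64.6 FPKM and was not called, although it passed at -0.11 and -0.098 under both scaling alternatives.

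Of 53 further hypoxia genes 49 were tested, and 32 fell (65.3%, against 31.3% of all genes), 13 rose (26.5%, against 35.3%) and 4 were not called. Their median was -0.57, and 19 fell at least 2-fold (38.8%, against 6.3% of all genes). Ddit4, an inhibitor of mTORC1 signalling that is also a p53 target, fell from 84.4 to 6.61 FPKM (-3.49). Loxl2, which cross-links collagen, fell from 18.1 to 1.87 FPKM (-2.73). The summed level of the fibroblast markers in p53-deficient libraries was 0.186 of that in WT, and their part in this fall was not tested. Ak4, a mitochondrial adenylate kinase, rose from 21.1 to 48.3 FPKM (1.16), and Rragd and Ppfia4 rose with 0.73 and 0.57. Mif, a cytokine gene, was at 519 and 535 FPKM without passing, and its difference of 0.042 turned to -0.057 and -0.014 under the scaling alternatives.

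**Figure D4:**
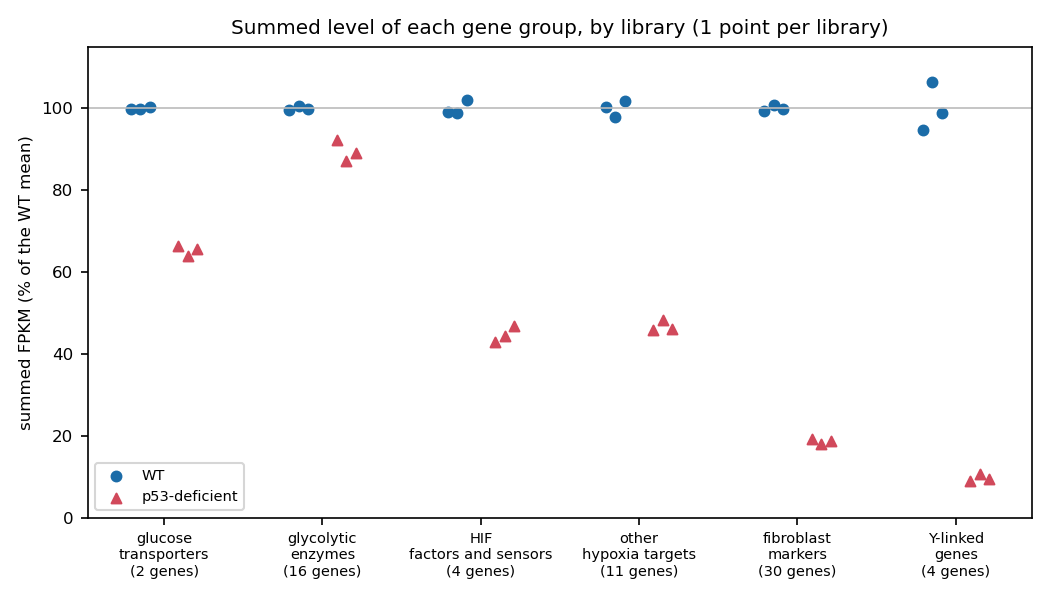
Summed FPKM of each gene group as a percentage of its WT mean, 1 point per library. Bnip3l and Higd1a, not called lower, held 26.3 and 20.6 of the 72.4 FPKM of the other hypoxia targets in p53-deficient libraries (means). The p53-deficient libraries lie at 87.0% to 92.2% for the 16 glycolytic enzyme entries, at 63.9% to 66.4% for the glucose transporters, at 42.8% to 48.2% for the HIF factors and sensors and the other hypoxia targets, at 17.97% to 19.3% for the fibroblast markers and at 8.90% to 10.6% for the Y-linked genes.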

How the data were processed

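Poly(A) RNA of 6 libraries (3 wild-type, 3 p53-deficient haploid ES cells) was made into libraries with a kit not stated to mark strand, per the labels' protocols. HISAT2 2.0.5, featureCounts 1.5.0-p3 and the mm10 genome are named in the submitters' processing notes, without their roles. The authors deposited FPKM per gene. Those values were whole multiples of 1 read per gene and library (tolerance 0.001), so reads were rebuilt from them, 11536412 to 21218976 per library. Libraries were grouped by the genotype in the labels. Columns of the table were matched to them by name and number: 3 name p53 and a knockout, and the 3 taken as WT name only haploid ES cells, as the WT titles do.

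Genes with a mean of at least 0.5 FPKM were tested on log2(FPKM + 1) with limma 3.58.1 (R 4.3.3; linear model on group, empirical Bayes with a variance trend, both sides). P-values were adjusted by Benjamini-Hochberg over all genes tested and called under 0.05. An exact permutation test of 3 against 3 cannot go below 0.1, so none is given. Near-identical copies (at least 95% identity over at least 50% of the shorter gene) were sought with BLAST+ 2.17.0. Fits were tested on simulated data. Alternatives were another pseudocount (0.1), other filters, 2 other scalings (the median log2 ratio of the libraries, and quantile normalization), no variance trend, array weights, a replicate block, voom on rebuilt reads, a stricter threshold and leaving out each library.

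All members are named. From each further list, the 3 largest called rises and falls of mean FPKM at least 1 and the most abundant gene not called are named, and from the fibroblast list the 2 genes of highest WT mean and the 2 of largest fall. One gene that this rule names is not reported here. Members and lists were chosen with earlier results of these data known. Promoters came from RefSeq (GRCm38.p6). Those of Ndrg1, Bnip3l, Epas1 and Slc2a3 were not used here.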

Additional observations from a re-analysis of the deposited data

How the results depend on the processing

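Across the alternatives that kept all libraries, 27 to 34 members were called. The 27 came from a filter at a mean of 5 FPKM, which tested 29 entries and called 5944 of 7752 genes in all. Scaling by the median log2 ratio gave 31 (6 higher, 25 lower). Calls over all 15144 tested genes moved as well, to 4258 higher and 5611 lower, from 5341 and 4733 without that scaling. Leaving out 1 library gave 32 to 34. Of the 33 calls, Ldha, Pfkp and Pgam1 were lost with that scaling, and Ldha and Pfkp with quantile normalization, without the variance trend and at a threshold of 0.01. Without WT replicate 3, Pfkp had a limma adjusted p of 0.0605, and without WT replicate 1 or 2, Ldha had 0.0586 and 0.0710. Every other call kept its direction wherever it was tested. Among the further glycolysis and hypoxia genes, 61 were called, 36 with the filter at 5 FPKM (fewer genes tested) and 57 to 58 with 1 library left out. Restrictions chosen after seeing the data left 25 called (6 higher, 19 lower) among members with no expressed near-identical copy, and 23 (5 higher, 18 lower) among those with no such copy, expressed or not (fewer entries counted).

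Direction turned for small differences only, and the cause was not tested. With the median log2 ratio, Ldha came to -0.022, Pfkp to -0.017, Slc16a1 to -0.045, Higd1a to -0.042, the second Aldoa gene to -0.034 and Mif to -0.057. With quantile normalization, Pfkp came to -0.025, Slc16a1 to -0.045, Higd1a to -0.029 and Mif to -0.014. With array weights the second Aldoa gene (Aldoa_second) came to -0.0061. With 1 library left out, the second Aldoa gene ranged from -0.10 to 0.24, Mif from -0.0074 to 0.080 and the Egln1 share difference from -3.37 to 3.02 percentage points.

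The replicate numbers were not taken to pair the libraries: the deviations of libraries with the same number from their group means correlated at -0.033, 0.014 and 0.0056. With the replicate block, 33 members were called (9 higher, 24 lower), Trp53 came to -2.67, and 9766 genes were called in all. Not every library correlated best with its own number. Vhl lost its call with the block (limma adjusted p = 0.0564). Depth limits the genes with few rebuilt reads: Car9, the second Aldoa gene and Ankrd37 in both groups, and Adm in the p53-deficient libraries (13 to 27).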
